A study of Mus musculus with 6 samples.

Results

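The miR-17-92 cluster and its paralogs were followed here as 10 mature miRNAs. Earlier results of these data were known, but the miRNAs were picked by their miRBase identifiers and not by their values. They are miR-17-5p (MIMAT0000649), miR-18a-5p (MIMAT0000528), miR-19a-3p (MIMAT0000651), miR-20a-5p (MIMAT0000529), miR-19b-3p (MIMAT0000513), miR-92a-3p (MIMAT0000539), miR-106a-5p (MIMAT0000385), miR-106b-5p (MIMAT0000386), miR-93-5p (MIMAT0000540) and miR-25-3p (MIMAT0000652). All 10 were among the 788 miRNAs listed in at least 1 of the 6 libraries, and all 10 were listed in 4 libraries. miR-106a-5p was not listed in NEBNext replicate 2 and TailorMix replicate 2 and was taken as 0 there. The libraries were prepared from serum RNA of healthy male and female 129/SVj mice aged 2 to 9 months. The groups are labelled by how the libraries were made, with kits named NEBNext Multiplex Small RNA (New England Biolabs), TruSeq small RNA v2 (Illumina) and TailorMix miRNA v2 (Seqmatic), with 2 libraries for each. All libraries were size selected to 125 to 153 bp. No group was treated, so each comparison asks how the level read for a miRNA differs between kits. The serum came from individual mice, and no source says which mouse gave which library. The sample titles number the serum 1 and 2 in each kit, but whether a number stands for the same serum in all kits is not stated. If it does not, kit and mouse (with its sex and age) cannot be told apart.

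In mammals these miRNAs are made from 3 clusters, in which several hairpins sit in a row on the same transcript. They fall into 4 seed families, and miRNAs of the same seed family pair with largely the same targets, since bases 2 to 8 of a miRNA lead its pairing with messenger RNA. The miR-17-92 cluster is a target of the transcription factor MYC and is known for promoting proliferation and survival, in lymphocytes and tumors in particular. In blood, miRNAs of these families are carried by blood cells and by the fluid itself. Serum has no cells of its own, so a larger number of releasing cells and more RNA released per cell cannot be told apart in these data.

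The mature sequences, shown because the kits were found to differ within seed families, are given 5′ to 3′ from RefSeq (GRCm38.p6), with the seed in capitals. All 10 names were found in RefSeq.
The miR-17 seed family has 5 of the 10 members.
miR-17-5p: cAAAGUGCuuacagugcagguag
miR-20a-5p: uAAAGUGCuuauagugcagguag
miR-106a-5p: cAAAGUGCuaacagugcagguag
miR-106b-5p: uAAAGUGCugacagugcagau
miR-93-5p: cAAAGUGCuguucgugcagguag
The miR-18 seed differs from it by a single base.
miR-18a-5p: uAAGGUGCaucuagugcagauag
The miR-19 seed family has 2 members.
miR-19a-3p: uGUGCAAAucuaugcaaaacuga
miR-19b-3p: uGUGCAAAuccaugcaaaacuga
The miR-92 seed family also has 2 members.
miR-92a-3p: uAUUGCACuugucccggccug
miR-25-3p: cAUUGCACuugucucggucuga

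Counting positions from 1 at the 5′ end, miR-19a-3p and miR-19b-3p differ by U11C alone, miR-17-5p and miR-106a-5p by U10A alone, and miR-17-5p and miR-20a-5p by C1U and C12U. miR-92a-3p and miR-25-3p differ by U1C, C14U and C18U over the 21 bases of miR-92a-3p, and miR-25-3p has 22 bases. Of the members, 4 open with C (miR-17-5p, miR-106a-5p, miR-93-5p and miR-25-3p) and 6 with U. Since the authors mapped reads without mismatches, these miRNAs can be told apart where a read covers a differing base. A read of miR-19b-3p or miR-92a-3p cannot be assigned to one of its 2 genes, because both genes give the same mature sequence.

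The 10 miRNAs come from 12 loci on GRCm38. On chromosome 14, miR-17-5p (115043684 to 115043706), miR-18a-5p (115043867 to 115043889), miR-19a-3p (115044048 to 115044070), miR-20a-5p (115044183 to 115044205), miR-19b-3p (115044358 to 115044380) and miR-92a-3p (115044476 to 115044496) lie on the plus strand within 813 bases, all inside an exon of the lincRNA gene Mir17hg. On chromosome X, miR-92a-3p (52741854 to 52741874), miR-19b-3p (52741991 to 52742013) and miR-106a-5p (52742541 to 52742563) lie on the minus strand within 710 bases. GENCODE M21 has no other gene over the first 2 of these, and the transcripts of Kis2 share a single base with miR-106a-5p. On chromosome 5, miR-25-3p (138165332 to 138165353), miR-93-5p (138165574 to 138165596) and miR-106b-5p (138165787 to 138165807) lie on the minus strand within 476 bases of Mcm7, a gene for a helicase subunit of DNA replication. They are intronic in the protein-coding transcripts of Mcm7, and miR-25-3p and miR-93-5p also overlap an exon of a transcript with a retained intron.

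Levels are given as the share of a library's miRNA reads, of which there were 165139 to 351758 per library. A read stands for 1 mature miRNA of 21 to 23 bases, so counts were not divided by length. A count of 0 allows up to 3 counts, or 0.000853% to 0.00182% of miRNA reads, and floors and intervals cover counting error only, because the reads carry no molecular identifiers and may be copies made by PCR. Replicates differed by more than counting noise in each kit, most in TruSeq (chi-square per degree of freedom 15.01, against 2.16 in NEBNext and 1.59 in TailorMix). Since libraries may or may not share a mouse, p-values measure only the spread between these libraries. In the fits below, the spread of a miRNA is drawn in part from the other miRNAs and is the same for all kits. It may be too small for TruSeq, so the small p-values of its comparisons are to be read with care. Fold changes are log2 values from edgeR's quasi-likelihood test over the 360 miRNAs that reached 4 counts in 2 or more libraries, all 10 members among them, scaled by TMM, and adjusted p-values are by Benjamini-Hochberg over all 360. TMM sets levels relative to a trimmed, weighted mean over the miRNAs, on the premise that most of them do not change. A share is relative to the total, and both scales gave different values here. The median log2 fold change of all 360 miRNAs from NEBNext to TruSeq was -0.52 with TMM and -1.48 with the total of miRNA reads. From NEBNext to TailorMix it was -0.24 and -0.88, and from TruSeq to TailorMix 0.50 and 0.91. With TMM, 68.6%, 77.5% and 70.6% of the 360 were called in these comparisons, in this order, so the premise of TMM was not met. A TMM value of 0 is therefore not the level of the median miRNA.

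Together the 10 miRNAs took 8.67% ± 0.0208 of miRNA reads in NEBNext, 17.1% ± 1.90 in TruSeq and 10.4% ± 0.145 in TailorMix (mean ± SD, n = 2 each). Nearly all of these reads were miR-92a-3p and miR-25-3p, which made up 89.5% ± 0.840 of the sum in NEBNext, 93.8% ± 0.469 in TruSeq and 89.0% ± 0.589 in TailorMix. The other 8 miRNAs together took only 0.906% ± 0.0750, 1.06% ± 0.0382 and 1.14% ± 0.0453 of miRNA reads. The higher sum in TruSeq was thus carried by the miR-92 seed family, and within it mainly by miR-92a-3p. Set against all annotated small RNA reads, tRNA fragments included, the sum was 793 ± 69.2 RPM in NEBNext, 5150.3 ± 610 RPM in TruSeq and 3884 ± 20.5 RPM in TailorMix (n = 2 each).

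**Figure D1:**
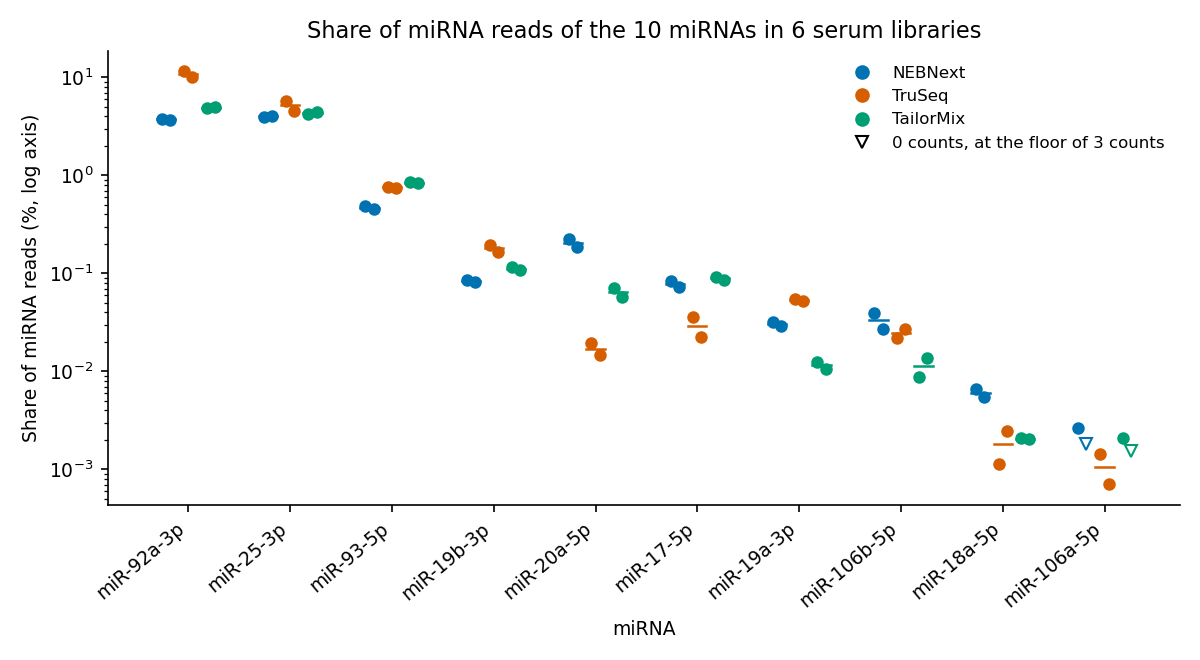
Share of miRNA reads in percent (log axis) of each of the 10 miRNAs in the 6 libraries, coloured by kit. Points are libraries, short lines the mean of 2 libraries (drawn only where both had counts), and open triangles libraries with 0 counts, drawn at the share of 3 counts. The shares run from over 10% for miR-92a-3p in TruSeq down to the floor for miR-106a-5p, and miR-20a-5p is the miRNA whose kits lie farthest apart (a 12.0-fold range of kit means).

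miR-92a-3p, known for restraining vessel growth in endothelial cells, took 3.77% and 3.71% of miRNA reads in the NEBNext libraries (8475 and 6130 counts), 11.5% and 10.2% in the TruSeq libraries (40583 and 28712 counts) and 4.85% and 4.97% in the TailorMix libraries (9381 and 9777 counts). Both TruSeq libraries lay above all others, and both TailorMix libraries above both NEBNext libraries. It ranked 2 and 3 among all miRNAs in TruSeq, 6 and 4 in TailorMix and 7 in both NEBNext libraries. Its log2 fold change was 2.61 (SE 0.094, adjusted p = 1.21e-22) from NEBNext to TruSeq, 1.04 (SE 0.090, adjusted p = 2.24e-12) from NEBNext to TailorMix and -1.57 (SE 0.091, adjusted p = 7.33e-17) from TruSeq to TailorMix. With the total of miRNA reads as the scale the first of these was 1.54 and the second 0.39, and both were still called.

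miR-25-3p, of the same seed family but made from the Mcm7 cluster, took 3.96% and 4.09% in NEBNext, 5.82% and 4.54% in TruSeq and 4.27% and 4.42% in TailorMix. The kits did not overlap, but the whole range of kit means was 1.29-fold, the smallest of the 10, and the TruSeq replicates alone differed by 1.28-fold. From NEBNext to TruSeq the log2 fold change was 1.44 (SE 0.10, adjusted p = 2.28e-14) with TMM and 0.36 by total. From NEBNext to TailorMix it was 0.77 (SE 0.10, adjusted p = 5.47e-08) with TMM, a call that ended by total (log2 fold change 0.11, adjusted p = 0.230) and with no count filter (0.53, adjusted p = 0.0515). TailorMix was below TruSeq by TMM (log2 fold change -0.68, SE 0.10, adjusted p = 6.33e-07) and by the total of miRNA reads (-0.25), but not relative to all annotated reads (0.058). The 95% Wilson intervals of miR-25-3p in single libraries cover counting error only. They spanned 3.88% to 4.04% in NEBNext replicate 1 and 5.74% to 5.89% in TruSeq replicate 1, the lowest and the highest library. Those of TruSeq replicate 2 (4.46% to 4.62%) and TailorMix replicate 2 (4.33% to 4.52%) overlapped. So did those of NEBNext replicate 2 (3.99% to 4.19%) and TailorMix replicate 1 (4.18% to 4.36%).

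In the miR-17 seed family, whose members repress cell cycle inhibitors such as Cdkn1a, the most abundant was miR-93-5p, also of the Mcm7 cluster. It took 0.487% and 0.451% in NEBNext (1095 and 744 counts), 0.760% and 0.749% in TruSeq (2673 and 2112 counts) and 0.866% and 0.828% in TailorMix (1675 and 1630 counts). Both NEBNext libraries were the lowest and both TailorMix libraries the highest. miR-93-5p was higher in TruSeq (log2 fold change 1.75, SE 0.11, adjusted p = 4.59e-16) and in TailorMix (1.504, SE 0.11, adjusted p = 3.37e-14) than in NEBNext. By total these were 0.68 and 0.85, so that which kit lay farther from NEBNext depended on the scale. Between TruSeq and TailorMix the direction depended on the scale: the log2 fold change was -0.25 (SE 0.11, adjusted p = 0.0354) with TMM and 0.17 (adjusted p = 0.110) by total. That TMM call was also lost without NEBNext replicate 1 (adjusted p = 0.116) or 2 (0.0752), and without TailorMix replicate 1 (0.449) or 2 (0.0812). It was lost as well with no count filter (0.167), with a filter of 10 counts in every library of a kit (0.0881) and with the 4 libraries of that comparison alone (0.0697).

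miR-20a-5p showed the widest range of the 10. It had 501 and 308 counts in NEBNext (0.223% and 0.187%), 69 and 41 in TruSeq (0.0196% and 0.0145%) and 137 and 113 in TailorMix (0.0708% and 0.0574%). NEBNext was highest and TruSeq lowest, with no overlap between kits. Its log2 fold change was -2.50 (SE 0.19, adjusted p = 1.18e-13) from NEBNext to TruSeq, -1.03 (SE 0.17, adjusted p = 2.37e-06) from NEBNext to TailorMix and 1.47 (SE 0.21, adjusted p = 2.54e-07) from TruSeq to TailorMix. By total the first was -3.57 and the second -1.68. Relative to all annotated reads the second changed sign, to 0.36 (edgeR adjusted p = 0.0460), and was called higher in TailorMix. The NEBNext libraries had many more annotated reads than the others.

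miR-17-5p, the first hairpin of the cluster on chromosome 14, differs from miR-20a-5p by 2 bases but followed another order of kits. It had 187 and 120 counts in NEBNext (0.0832% and 0.0727%), 126 and 63 in TruSeq (0.0358% and 0.0223%) and 178 and 170 in TailorMix (0.0920% and 0.0863%). TailorMix was the highest kit for it, just above NEBNext, and TruSeq the lowest. It was higher in TailorMix than in TruSeq (log2 fold change 1.17, SE 0.20, adjusted p = 3.42e-06). The difference between TruSeq and NEBNext was not called with TMM (-0.33, SE 0.20, adjusted p = 0.139), was called by total (-1.40, adjusted p = 1.25e-15) and had the other sign relative to all annotated reads (0.32, adjusted p = 0.112). It was also called with TMM without NEBNext replicate 2 (-0.58, adjusted p = 0.0114) or without TruSeq replicate 1 (-0.82, adjusted p = 0.00311), and under a filter of 10 counts in every library of at least 1 kit (-0.44, adjusted p = 0.0270). From NEBNext to TailorMix its log2 fold change was 0.84 (SE 0.19, adjusted p = 0.000162) with TMM and 0.19 (adjusted p = 0.260) by total, and with no count filter the adjusted p was 0.0872.

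miR-106b-5p, which shares the Mcm7 transcript with miR-93-5p and miR-25-3p, had 88 and 45 counts in NEBNext (0.0391% and 0.0272%), 78 and 77 in TruSeq (0.0222% and 0.0273%) and 17 and 27 in TailorMix (0.00879% and 0.0137%). Both TailorMix libraries were the lowest, while NEBNext and TruSeq overlapped. It was lower in TailorMix than in TruSeq (log2 fold change -1.54, SE 0.28, adjusted p = 1.43e-05). It was also lower in TailorMix than in NEBNext (-0.93, SE 0.29, adjusted p = 0.00519, and -1.58 by total), but without TailorMix replicate 1 this was -0.38 (adjusted p = 0.338), with DESeq2 the adjusted p was 0.0800, and relative to all annotated reads the value was 0.46. From NEBNext to TruSeq the sign turned with the scale, from 0.60 (SE 0.23, adjusted p = 0.0195) with TMM to -0.46 (adjusted p = 0.0428) by total. The TMM value was not called without NEBNext replicate 1 (0.63, adjusted p = 0.0778) or 2 (0.25, adjusted p = 0.425), or without TruSeq replicate 2 (0.38, adjusted p = 0.230). It was also not called with DESeq2 (0.71, adjusted p = 0.153) or with no count filter (0.54, adjusted p = 0.220).

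miR-106a-5p, the member encoded only on chromosome X, was at the limit of detection. It had 6 and 0 counts in NEBNext, 5 and 2 in TruSeq and 4 and 0 in TailorMix. The 2 libraries at 0 allow a share of up to 0.00182% (NEBNext replicate 2) and 0.00152% (TailorMix replicate 2). All kits overlapped, their mean counts were 3, 3.5 and 2, and no fold is given here. Fitted values of miR-106a-5p appear only among the refits at the end, where they rest on these few counts. A difference was not detectable at this depth (edgeR adjusted p = 0.622, 0.963 and 0.682 in the 3 comparisons). Its close relative miR-17-5p, which differs from it by a single base, had at least 25.2 times its counts in every library where both were counted.

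In the miR-19 seed family both members were highest in TruSeq. miR-19b-3p had 194 and 135 counts in NEBNext (0.0863% and 0.0817%), 681 and 468 in TruSeq (0.194% and 0.166%) and 224 and 212 in TailorMix (0.116% and 0.108%). miR-19a-3p had 71 and 48 counts in NEBNext (0.0316% and 0.0291%), 193 and 148 in TruSeq (0.0549% and 0.0525%) and 24 and 21 in TailorMix (0.0124% and 0.0107%). No kits overlapped for either of them, but TailorMix was the middle kit for miR-19b-3p and the lowest for miR-19a-3p. From NEBNext to TruSeq both were higher, with log2 fold changes of 2.17 (SE 0.15, adjusted p = 9.52e-15) for miR-19b-3p and 1.89 (SE 0.19, adjusted p = 1.14e-10) for miR-19a-3p with TMM, and of 1.097 and 0.818 by total. From NEBNext to TailorMix they had opposite signs, 1.06 (SE 0.16, adjusted p = 4.87e-07) for miR-19b-3p and -0.75 (SE 0.27, adjusted p = 0.0146) for miR-19a-3p with TMM, and 0.41 and -1.40 by total. The value of miR-19a-3p was not called with DESeq2 (adjusted p = 0.0799), without TailorMix replicate 1 (-0.59, adjusted p = 0.147) or without TailorMix replicate 2 (-0.53, adjusted p = 0.192), and was 0.64 (adjusted p = 0.0435) relative to all annotated reads. From TruSeq to TailorMix both were lower, with log2 fold changes of -1.11 (SE 0.15, adjusted p = 4.23e-08) for miR-19b-3p and -2.63 for miR-19a-3p (SE 0.23, adjusted p = 3.37e-12) with TMM, and of -0.69 and -2.22 by total.

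miR-18a-5p, the only member of its seed family here, had few counts: 15 and 9 in NEBNext, 4 and 7 in TruSeq and 4 and 4 in TailorMix. Both NEBNext libraries (0.00667% and 0.00545%) lay above the other 4 (0.00114% to 0.00248%). With TMM none of its comparisons was called by edgeR (adjusted p = 0.246 from NEBNext to TruSeq, 0.168 from NEBNext to TailorMix and 0.835 from TruSeq to TailorMix, unadjusted p = 0.199, 0.145 and 0.805). By total it was called lower than NEBNext in TruSeq (-1.79, SE 0.58, adjusted p = 0.00348) and in TailorMix (-1.56, SE 0.63, adjusted p = 0.0187). Its log2 fold change from TruSeq to TailorMix was -0.18 with TMM and 0.23 by total.

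Counted over the 10, TruSeq against NEBNext had 6 members higher (miR-19a-3p, miR-19b-3p, miR-92a-3p, miR-106b-5p, miR-93-5p and miR-25-3p) and 1 lower (miR-20a-5p), where 26.1% of the 360 tested miRNAs were called higher and 42.5% lower. By total, 5 members were called higher and 4 lower (16.9% and 53.1% of all). The median log2 fold change was 1.02 over the 10 members with TMM and -0.047 by total, on scales where all 360 had -0.52 and -1.48. TailorMix against NEBNext had 5 members higher (miR-17-5p, miR-19b-3p, miR-92a-3p, miR-93-5p and miR-25-3p) and 3 lower (miR-19a-3p, miR-20a-5p and miR-106b-5p), beside 39.2% of all called higher and 38.3% lower. By total these were 3 and 4 members, beside 30.0% and 47.8% of all. Relative to all annotated reads 7 members were called, each of them higher, as were 188 of all 360 miRNAs, with 64 lower. The median of the members was 0.41 with TMM and -0.22 by total. TailorMix against TruSeq had 2 members higher (miR-17-5p and miR-20a-5p) and 6 lower (miR-19a-3p, miR-19b-3p, miR-92a-3p, miR-106b-5p, miR-93-5p and miR-25-3p), beside 41.7% and 28.9% of all. By total 2 members were higher and 5 lower (48.6% and 24.7% of all), and the median of the members was -0.59 with TMM and -0.18 by total. In either direction 7, 8 and 8 of the 10 were called in the 3 comparisons, beside 68.6%, 77.5% and 70.6% of all miRNAs tested. In number the members were thus called about as often as all miRNAs. These comparisons share kits with each other, so their counts are not independent.

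**Figure D2:**
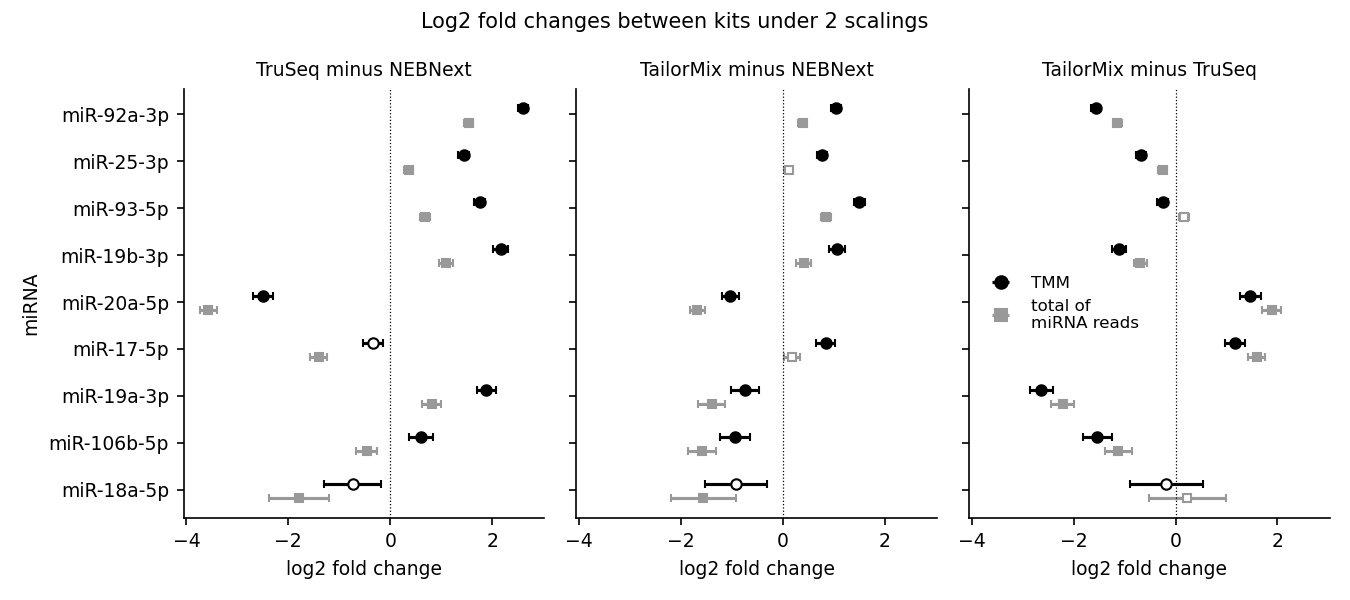
Log2 fold changes (horizontal axis) with standard errors (bars) of 9 of the 10 miRNAs in the 3 comparisons of kits, from edgeR with TMM (black circles) and with the total of miRNA reads as library size (grey squares). Filled symbols have an adjusted p under 0.05, and miR-106a-5p is left out because of its counts. From NEBNext to TruSeq most miRNAs lie to the right and miR-20a-5p far to the left with TMM (-2.50), and the grey squares are shifted to the left of the circles.

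For the share of each member alone, the spread between kits was set in an exact permutation test (two-sided) against the 15 groupings of 6 libraries into pairs, which cannot give a p under 0.0667. It gave 0.0667 for 7 of the 10 (miR-17-5p, miR-19a-3p, miR-20a-5p, miR-19b-3p, miR-92a-3p, miR-93-5p and miR-25-3p), and 63.6% of all 360 miRNAs also had this p. For miR-106b-5p the exact permutation test gave p = 0.133, for miR-18a-5p p = 0.200 and for miR-106a-5p p = 1. In pairs of kits, the 2 libraries of TruSeq lay above both of NEBNext for 5 members and below for 3, beside 21.9% and 61.7% of all miRNAs. TailorMix lay above NEBNext for 5 and below for 4 (36.1% and 52.8% of all), and above TruSeq for 3 and below for 5 (53.3% and 30.6% of all).

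The order of the 10 levels was alike at its ends and changed in its middle. In each kit miR-92a-3p and miR-25-3p held the first and second place, miR-93-5p the third, miR-18a-5p the ninth and miR-106a-5p the last. miR-25-3p stood above miR-92a-3p in both NEBNext libraries and below it in the other 4. With NEBNext the order went on with miR-20a-5p (0.205% ± 0.0257), miR-19b-3p (0.0840% ± 0.00320), miR-17-5p (0.0779% ± 0.00742), miR-106b-5p (0.0332% ± 0.00840) and miR-19a-3p (0.0303% ± 0.00177). There miR-19b-3p overlapped with miR-17-5p, and miR-106b-5p with miR-19a-3p. With TruSeq it was miR-19b-3p (0.180% ± 0.0196), miR-19a-3p (0.0537% ± 0.00170), miR-17-5p (0.0291% ± 0.00954), miR-106b-5p (0.0247% ± 0.00362) and miR-20a-5p (0.0171% ± 0.00359), and miR-17-5p overlapped with miR-106b-5p. With TailorMix it was miR-19b-3p (0.112% ± 0.00573), miR-17-5p (0.0892% ± 0.00401), miR-20a-5p (0.0641% ± 0.00949), miR-19a-3p (0.0115% ± 0.00123) and miR-106b-5p (0.0112% ± 0.00348), and the last 2 overlapped (mean ± SD, n = 2 in each kit). miR-20a-5p thus stood at place 4 of 10 in NEBNext, 8 in TruSeq and 6 in TailorMix. With TruSeq and TailorMix the ninth and the last miRNA, miR-18a-5p and miR-106a-5p, overlapped as well.

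**Figure D3:**
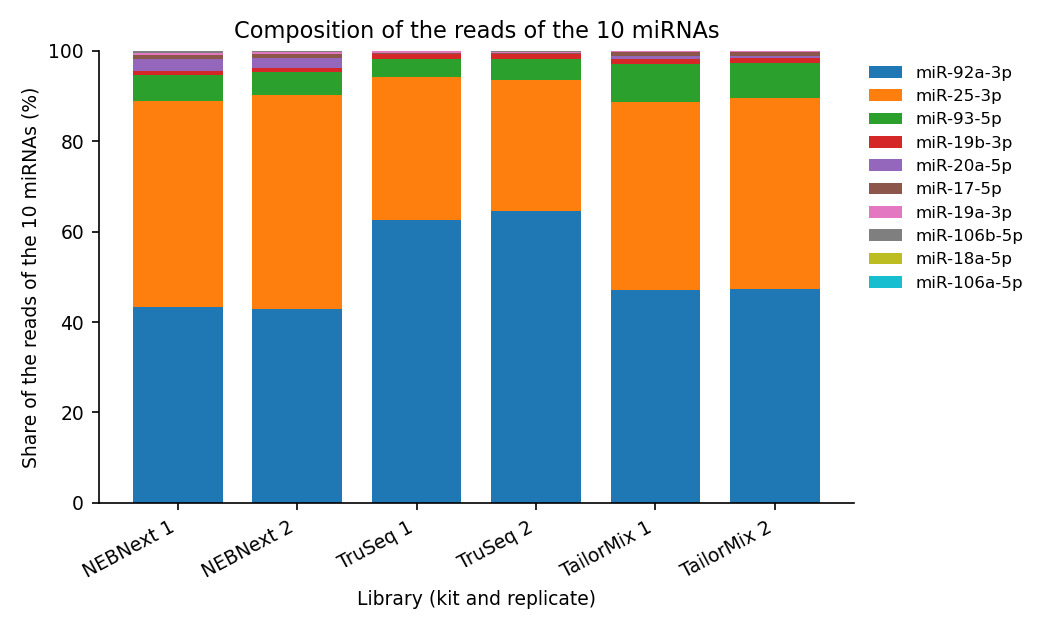
Share of the reads of the 10 miRNAs that each of them took (stacked bars, percent) in the 6 libraries. miR-92a-3p takes 62.6% and 64.6% in the TruSeq libraries and 42.9% to 47.3% in the other 4, and miR-20a-5p (purple) is visible mainly in NEBNext, at 2.57% and 2.16%.

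Ratios between miRNAs of the same library do not depend on the scaling, and show where members with the same seed parted between kits. They are given as descriptions. miR-92a-3p had 0.953 and 0.908 counts per count of miR-25-3p in NEBNext, 1.98 and 2.24 in TruSeq and 1.14 and 1.12 in TailorMix. Which of the 2 led therefore differed between kits. miR-20a-5p had 2.68 and 2.57 counts per count of miR-17-5p in NEBNext, but 0.548 and 0.651 in TruSeq and 0.770 and 0.665 in TailorMix, a 4.38-fold range of kit means. These 2 miRNAs come from the same transcript and differ by C1U and C12U. miR-19b-3p had 2.73 and 2.81 counts per count of miR-19a-3p in NEBNext, 3.53 and 3.16 in TruSeq and 9.33 and 10.1 in TailorMix, a 3.50-fold range. In this pair the first 10 and the last 12 bases are identical and U11C is the only difference, and miR-19b-3p has a second gene on chromosome X. miR-93-5p had 12.4 and 16.5 counts per count of miR-106b-5p in NEBNext, 34.3 and 27.4 in TruSeq and 98.5 and 60.4 in TailorMix, a 5.48-fold range. Both come from the Mcm7 cluster, and miR-106b-5p has 21 bases where miR-93-5p has 23. Whether the bases or the length of a miRNA bear on these ratios was not tested. The 3 kits did not overlap in any of these 4 ratios, which were picked from the same-seed pairs. For miR-20a-5p and miR-17-5p, however, TruSeq replicate 2 (0.651, from 41 and 63 counts) lay just below TailorMix replicate 2 (0.665). For this pair only NEBNext stood clearly apart. No ratio was set against its counting error. Of the other pairs without miR-106a-5p, the kits overlapped for miR-20a-5p and miR-106b-5p. They did not overlap for miR-17-5p and miR-106b-5p, miR-17-5p and miR-93-5p, or miR-20a-5p and miR-93-5p. How often kits overlap in ratios of other miRNAs was not tested.

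**Figure D4:**
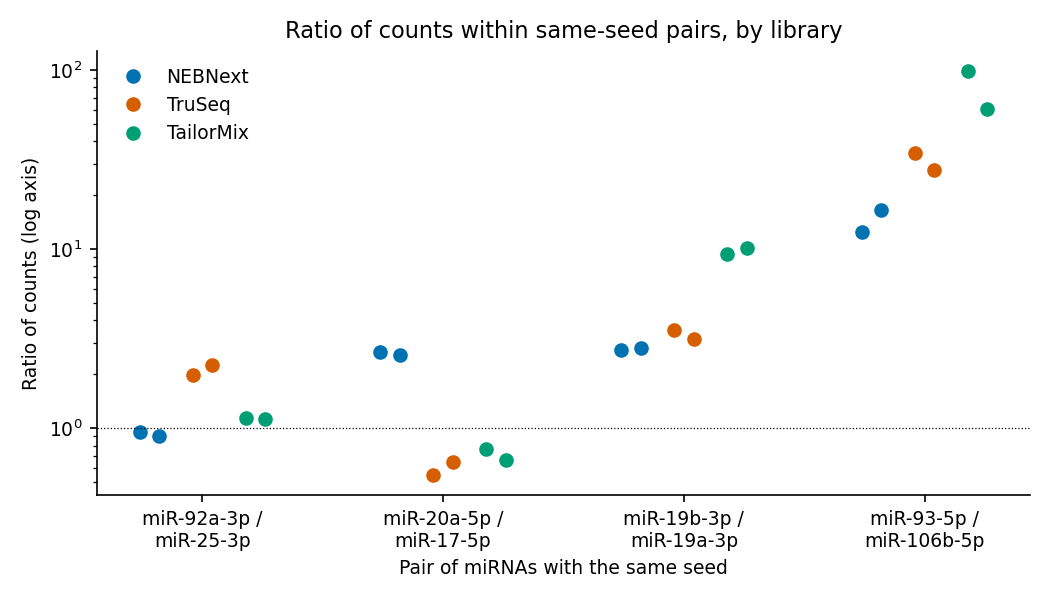
Ratio of the counts of 2 miRNAs with the same seed (log axis) in each library, for 4 pairs, coloured by kit, where the dotted line marks equal counts. miR-20a-5p exceeds miR-17-5p only in NEBNext (2.68 and 2.57), and miR-92a-3p is below miR-25-3p only in NEBNext (0.953 and 0.908).

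Members of the same transcript also parted. miR-92a-3p had 48.2 ± 4.07 counts per count of miR-17-5p in NEBNext, 389 ± 94.5 in TruSeq and 55.1 ± 3.40 in TailorMix (mean ± SD, n = 2 each), though part of miR-92a-3p may come from chromosome X. The 4 miRNAs encoded only in the chromosome 14 cluster (miR-17-5p, miR-18a-5p, miR-19a-3p and miR-20a-5p) together took 0.319% ± 0.0357 of miRNA reads in NEBNext, 0.102% ± 0.0139 in TruSeq and 0.167% ± 0.0148 in TailorMix. The 3 miRNAs of the Mcm7 cluster took 4.52% ± 0.0603, 5.96% ± 0.906 and 5.21% ± 0.0846, most of it miR-25-3p. The ratio of miR-25-3p to miR-93-5p, neighbours on that transcript, moved less, from 8.60 ± 0.674 in NEBNext to 6.86 ± 1.12 in TruSeq and 5.14 ± 0.290 in TailorMix, a 1.67-fold range of kit means. The ratio of miR-92a-3p to miR-19b-3p, which are made together on both chromosomes 14 and X, was 44.5 ± 1.22 in NEBNext, 60.5 ± 1.24 in TruSeq and 44.0 ± 3.00 in TailorMix, so that NEBNext and TailorMix overlapped and the range was 1.37-fold.

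The sum of the miR-17 seed family was mostly miR-93-5p, at 0.469%, 0.754% and 0.847% of miRNA reads in NEBNext, TruSeq and TailorMix (a 1.81-fold range of kit means). The 5 miRNAs of the miR-17 seed family took 0.786% ± 0.0691 of miRNA reads in NEBNext, 0.826% ± 0.0179 in TruSeq and 1.01% ± 0.0383 in TailorMix, while the less abundant miR-20a-5p had a 12.0-fold and miR-17-5p a 3.07-fold range. The miR-19 seed family took 0.114% ± 0.00497, 0.233% ± 0.0213 and 0.123% ± 0.00696. The miR-92 seed family took 7.76% ± 0.0542, 16.0% ± 1.86 and 9.26% ± 0.190 (mean ± SD, n = 2 each).

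Outside the 10, the tested miRNA nearest to miR-92a-3p, the member with the highest mean share (6.50%), was MIMAT0000711, by the distance over the log2 fold changes from NEBNext to TruSeq and to TailorMix (0.275, with values of 2.58 and 0.77). It rested on 3 to 28 counts per library, and the next nearest, MIMAT0017169, lay at 0.435 on 22 to 173 counts. The files list identifiers only, and neither was named. The other arms of the clusters and further members of the seed families were not analysed here.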

How the data were processed

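Serum RNA of 129/SVj mice was sequenced with 3 small RNA kits, 2 libraries each. The authors deposited raw read counts per miRNA, and per distinct sequence of other small RNAs. Before this they trimmed adaptors (cutadapt 1.8.1), discarded short and low-quality reads, mapped to GRCm38 (mm10) with Bowtie 1.1.2 without mismatches and annotated reads by position, with miRNAs from miRBase. Versions are from the submitters' processing notes. A miRNA not listed was taken as 0.

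Here, miRNAs that reached 4 counts in 2 or more libraries were fitted with edgeR 4.0.16 (R 4.3.3; TMM, glmQLFit, glmQLFTest, all 6 libraries, no block), with Benjamini-Hochberg adjustment and a threshold of 0.05. Standard errors were the log2 fold change over the root of F. Shares, Wilson intervals and exact permutation tests used scipy 1.17.1, numpy 2.4.6 and pandas 2.3.3 under Python 3.11.15. The code of the fit was run on simulated counts, with changes up and down alike in TruSeq alone and a uniform spread. These are simpler than the data, so the run does not show how accurate the fit is here. Alternatives were other scalings (total of miRNA or annotated reads, RLE), DESeq2 1.42.0, other count filters, the libraries of a contrast alone, a replicate block, and single libraries left out. All 10 members are described. The miRNAs most like the top member were picked by the distance of their fold changes and are given by identifier only. RPM are the same counts per total of annotated reads, miRNA and other. Members and lists were chosen with earlier results of these data known. Names were tied to identifiers for the members only, so 0 of 21 further miRNAs of these clusters and families were matched, and blood cell miRNAs were not analysed here.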

Additional observations from a re-analysis of the deposited data

How the results depend on the processing

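Of 414 refits of the members' log2 fold changes, 362 kept their sign and their side of the threshold, 21 lost the call, 6 gained it and 25 changed sign. With the total of miRNA reads as library size, values turned to -0.46 (miR-106b-5p) and -0.46 (miR-106a-5p) from NEBNext to TruSeq, to -0.56 (miR-106a-5p) from NEBNext to TailorMix, and to 0.23 (miR-18a-5p) and 0.17 (miR-93-5p) from TruSeq to TailorMix. With the total of annotated reads they turned to 0.32 for miR-17-5p from NEBNext to TruSeq. From NEBNext to TailorMix they turned to 0.46 (miR-18a-5p), 0.64 (miR-19a-3p), 0.36 (miR-20a-5p) and 0.46 (miR-106b-5p), and from TruSeq to TailorMix to 0.54 (miR-18a-5p), 0.20 (miR-106a-5p), 0.48 (miR-93-5p) and 0.058 (miR-25-3p). The fits differ there only in the library size. miR-106a-5p from NEBNext to TailorMix was -0.15 without a count filter and -0.061 with 4 libraries. Its fitted values depend on the prior count and are no bound.

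With single libraries left out, miR-106a-5p ranged from -0.34 to 4.70 (NEBNext to TruSeq), -4.32 to 4.26 (NEBNext to TailorMix) and -4.99 to 0.39 (TruSeq to TailorMix), and miR-18a-5p from -0.77 to 0.29 (TruSeq to TailorMix). In these fits the lone library of a kit is assumed to vary like the others. The causes of changed signs there were not tested.

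The sum of the 10 members was 0.0793%, 0.515% and 0.388% of annotated reads (NEBNext, TruSeq, TailorMix), and 10.1%, 22.1% and 12.7% of miRNA reads once the 3 miRNAs that led in any kit were all taken out of every library's total. Without one library it ranged from 8.65% to 8.68%, 15.8% to 18.4% and 10.3% to 10.5%. With a replicate block, 7, 8 and 8 members and 232, 250 and 235 of all miRNAs were called, and no member's call changed. The sample titles number the serum 1 and 2 in each kit, which may mean that the same sera were used in all kits. Differences between replicates correlated between kits at 0.0627, 0.234 and 0.185 (54 miRNAs). These values cannot decide it, since noise of each library also enters them. In the main fit the numbers were not taken as pairs. The low counts of miR-106a-5p and miR-18a-5p limit what could be detected, and 2 libraries per kit do not allow an exact p under 0.0667.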
